A study of Arabidopsis thaliana with 6 samples.

Results

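The genes described here encode the UDP-glycosyltransferases (UGT), which attach a sugar from a UDP-sugar donor to a small molecule, and the beta-glucosidases (BGLU), which cut such sugars off again. They were chosen by name: each has a probe set that lists 1 gene, and its symbol starts with UGT or BGLU followed by a digit. Of 13356 genes measured in this way, 67 were members, 47 of them UGT genes and 20 BGLU genes, and each had 1 probe set. The RefSeq table holds 98 genes with such symbols, 58 UGT and 40 BGLU, and the other 31 were not analysed here. Probe sets that list several genes, with a UGT or BGLU among them, numbered 4 and were left unnamed.

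The RNA came from Arabidopsis thaliana seedlings in the Col-0 background, of 2 genotypes: wild type (WT) and a double mutant in YAF9A and YAF9B. These genes encode subunits of chromatin complexes that acetylate histones and exchange the histone variant H2A.Z. Per the labels, seedlings of both genotypes grew in short days (8 h light, 16 h dark) at 22 °C on agar, untreated, and were taken when 20 days old at ZT8, the end of the light period. Each genotype had 3 Affymetrix ATH1 arrays, 1 for each biological replicate, each from about 250 mg of seedlings and thus from several pooled plants. The mutant alleles are not named in the labels, so what they leave of either gene is not known here, and values from seedlings do not separate fewer cells of a type from less RNA per cell. No probe set was listed under either targeted gene (0 found), so the genotypes were not checked by their own transcripts.

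Glycosylation usually makes a small molecule more soluble and less active and lets it be stored in the vacuole, and a beta-glucosidase can return the free compound. In plants the acceptors include hormones such as abscisic acid, salicylic acid, auxin and cytokinins, pigments such as flavonoids, precursors of lignin, defence compounds such as glucosinolates, and foreign chemicals. UGT enzymes of one numbered group resemble each other in sequence, and many of their genes lie side by side on a chromosome as tandem copies. No sequences of these genes or proteins were used here.

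Levels are given as log2 signal, and changes as yaf9a yaf9b minus WT on the log2 scale, where 1 is a 2-fold difference. A change was counted when its limma p, adjusted by Benjamini-Hochberg over all 22746 probe sets, was under 0.05. Signals of different probe sets are not on a common scale. They were ranked only to mark dim and bright probe sets, and averaged only over the marker lists. These levels do not compare amounts of RNA between genes. On the whole series, the array medians lay between 5.99 and 6.06, the correlation across probe sets was 0.989 to 0.996 between arrays of 1 genotype and 0.98 to 0.987 between genotypes, and 2985 probe sets changed. A gene of a marker or pathway list counted as measured when its symbol or synonym matched a probe set that lists 1 gene. A listed gene without such a match may still lie on the array. Of the leaf markers, 4 of 16 were measured, and their mean level was 13.19 to 13.34 in WT and 13.12 to 13.21 in the mutant. LHCB4.2, a light-harvesting gene, was the only one of them to pass (log2 change -0.33 ± 0.0876, adjusted p = 0.0434), and it missed the threshold when any 1 of the 6 arrays was left out (0.0521 to 0.158). Of the root and root hair markers, 3 of 20 were measured, with a mean level of 6.83 to 7.07 in WT and 6.67 to 7.05 in the mutant, and 0 of the 3 changed. The photosystem genes were bright on every array, and so was PYK10, which is strong in roots and lay at 11.82 to 12.43. The other root markers, EXPA7 and EXPA18, lay at 3.39 to 3.77 and at 4.66 to 5.34, in the lowest 40% of the array by mean signal. PYK10 was thus the only bright marker of roots. The only measured marker of senescence, SAG29, had a log2 change of -0.26 ± 0.14 (SE; adjusted p = 0.285).

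BGLU45, whose enzyme acts on glucosides of lignin precursors, had the largest change of any member and rose 3.17-fold in the mutant, and BGLU46, its neighbour with the same kind of substrate, fell 2.09-fold. Among the transferases, UGT73C1, UGT76E12, UGT73B5, UGT76E11 and UGT84A3 fell, by 1.52-fold to 2.38-fold, and UGT71B6, which glucosylates abscisic acid, rose 1.42-fold. BGLU27 fell 1.87-fold. These 9 genes were 13.4% of the 67 members, against 13.1% of all probe sets tested and 12% of genes when each was represented by its brightest probe set. The gap between these shares depended on the arrays used. Without mutant array 2, 8.96% of members changed against 4.23% of all probe sets, and without WT array 2 10.4% against 6.07%. Without mutant array 1 it was 13.4% against 8.46%, and without mutant array 3 19.4% against 11.8%. Without WT array 1 the shares were 11.9% and 8.97%, and without WT array 3 they were 10.4% and 10%. Leaving out dim probe sets gave 19.4% of members, below the 21.7% of all probe sets kept. Blocking on replicate number gave shares of 8.96% and 5.42%, and the difference between members and the rest was not tested. In direction, 2 members rose and 7 fell, while over all probe sets 6.52% rose and 6.61% fell (5.74% and 6.23% with 1 probe set per gene). At an unadjusted p under 0.05 there were 21 members, 7 higher and 14 lower, or 31.3%, against 26.3% of all genes.

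**Figure D1:**
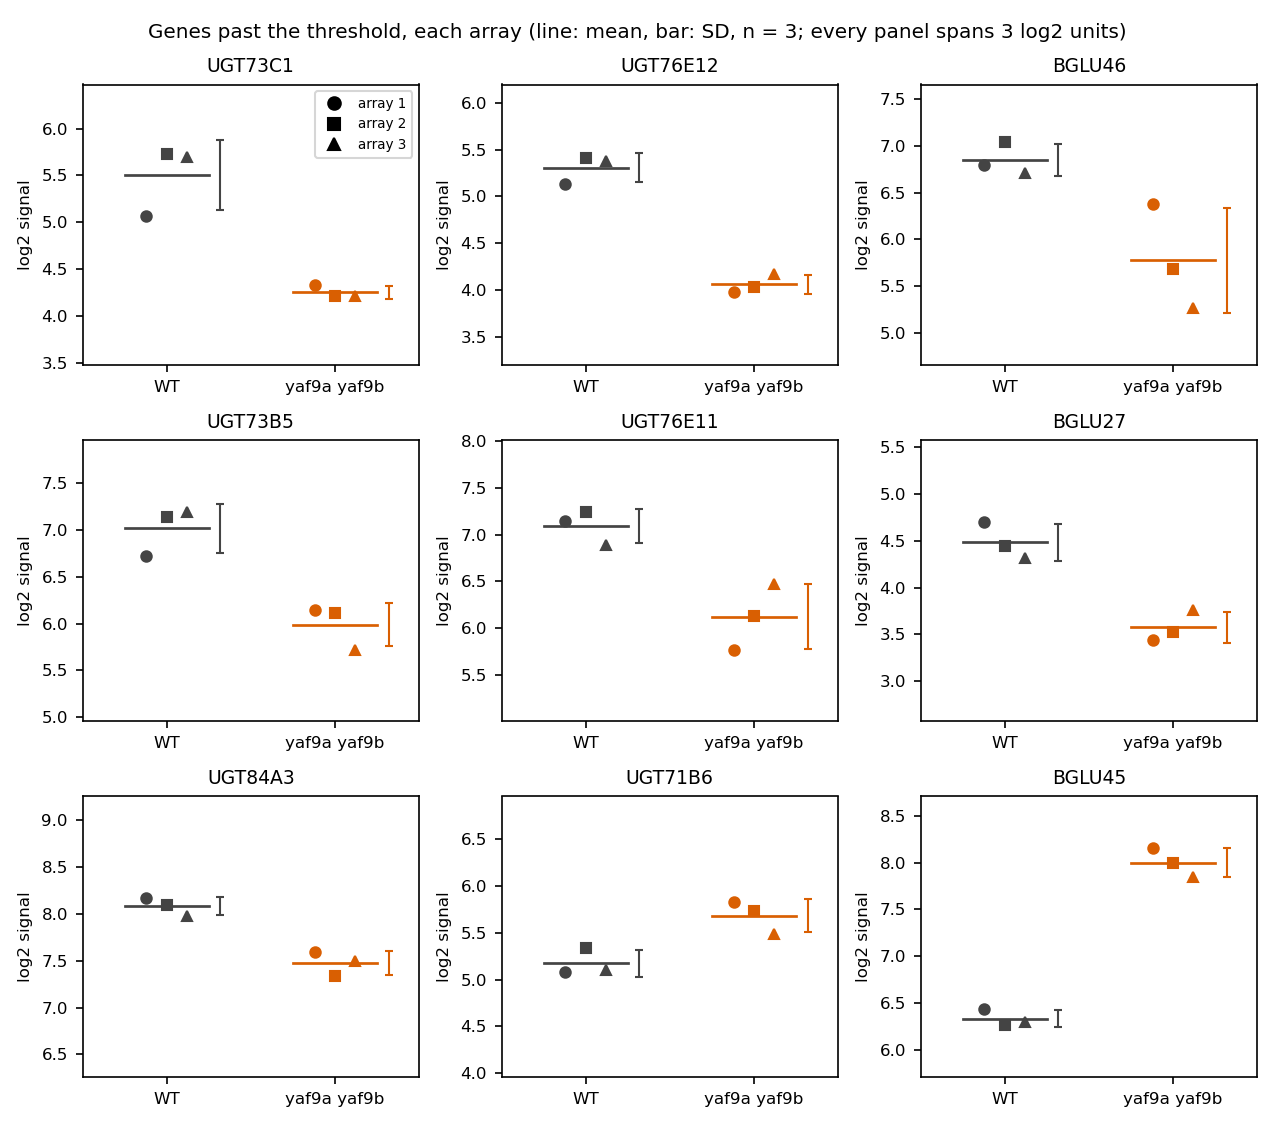
Log2 signal on each array of the 9 UGT and BGLU genes with an adjusted p under 0.05. Symbols are arrays 1 to 3 of each genotype, horizontal lines are means and bars are SDs (n = 3 arrays). In each panel all mutant arrays lie on 1 side of all WT arrays, and the gap is widest for BGLU45. The genes were picked by p from these same arrays, so a lack of overlap adds no further support. Over all genes, 30% show no overlap.

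BGLU45 and BGLU46 encode beta-glucosidases that hydrolyse the glucosides of monolignols, the building blocks of lignin. BGLU45 (AT1G61810) lay at 6.44, 6.26 and 6.3 in WT arrays 1, 2 and 3 and at 8.15, 8 and 7.85 in the mutant arrays. The mutant arrays were all higher, with no overlap and little spread in either genotype. Its log2 change was 1.67 ± 0.104 (SE, limma adjusted p = 0.000348), with a 95% interval of 1.43 to 1.91. It stayed between 1.59 and 1.74 in every alternative analysis run, with the adjusted p at most 0.00787.

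BGLU46 (AT1G61820) lay at 6.79, 7.04 and 6.71 in WT and at 6.38, 5.69 and 5.27 in the mutant. The mutant arrays were lower without overlap, but they were spread over 1.11 units, against 0.33 in WT. The log2 change was -1.07 ± 0.251 (adjusted p = 0.0293; 95% interval -1.64 to -0.49). Leaving out WT array 1, 2 or 3 or mutant array 2 put BGLU46 above the threshold (adjusted p = 0.0699, 0.107, 0.0591 and 0.108). BGLU47, of the same sequence group, was dim in all arrays, at 3.53 to 3.67 in WT and 3.54 to 3.62 in the mutant, and had a log2 change of -0.01 ± 0.0823 (95% interval -0.20 to 0.18).

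UGT72E1, UGT72E2 and UGT72E3 act in the opposite direction on the same pathway, since they glucosylate monolignols and their aldehydes, and none of the 3 passed the test. UGT72E1 had a log2 change of 0.11 ± 0.227, with WT arrays at 8.29, 9.04 and 9.15. UGT72E2 had -0.01 ± 0.268, with a 95% interval of -0.62 to 0.61 that leaves room for a 1.5-fold difference either way. UGT72E3 had 0.17 ± 0.0973, and UGT72B3, of the same numbered group, 0.03 ± 0.104. The signs of UGT72E1, UGT72E2 and UGT72B3 depended on which array was left out. Of 4 measured genes of the phenylpropanoid and monolignol list, 0 passed the test. The widest of them was CCOAMT, which the annotation names as a caffeoyl-CoA methyltransferase, at 8.52, 9.11 and 9.5 in WT and 8.31, 6.92 and 4.79 in the mutant (log2 change -2.37 ± 0.754, adjusted p = 0.0794, and 0.02 without mutant array 1, where the change was -3.19). HCT, an acyltransferase on the way to monolignols, had 0.24 ± 0.0993 (adjusted p = 0.161), CCR2, a cinnamoyl-CoA reductase, -0.54 ± 0.214 (0.143) and ALDH2C4, which oxidises hydroxycinnamaldehydes, -0.21 ± 0.159 (0.465).

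The UGT73 group includes enzymes that act on foreign chemicals and on defence-related compounds. Of its 7 measured genes, 2 fell and 0 rose, 6 had a negative value, and the median of the 7 log2 changes was -0.35. Over all genes, 6.23% fell and 49.1% had a negative value, and the difference from this group was not tested. UGT73C1 (AT2G36750), whose enzyme accepts cytokinins and the explosive TNT, lay at 5.07, 5.73 and 5.7 in WT and at 4.33, 4.21 and 4.21 in the mutant. All mutant arrays were below all WT arrays, and the log2 change was -1.25 ± 0.172 (adjusted p = 0.00461). UGT73B5 (AT2G15480), which contributes to resistance against bacteria, lay at 6.72, 7.14 and 7.19 in WT and at 6.14, 6.11 and 5.72 in the mutant. Again the genotypes were separate, and the log2 change was -1.03 ± 0.161 (adjusted p = 0.00737).

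UGT73B4 (AT2G15490), the neighbour of UGT73B5 and another enzyme active on TNT, had a difference of like size but more spread. It lay at 6.33, 6.89 and 7.3 in WT and at 6.62, 5.6 and 5.39 in the mutant, so that mutant array 1 was inside the WT range. Its log2 change of -0.97 ± 0.342 did not pass (adjusted p = 0.107), and without mutant array 1 it was -1.35 and passed (0.0241). UGT73C7 had -0.35 ± 0.115 (adjusted p = 0.088), with separate genotypes at low signal. UGT73B1 had -0.22 ± 0.119, UGT73D1 -0.15 ± 0.149 and UGT73C2 0.13 ± 0.107.

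Among the 7 members that fell, the lowest WT array was array 1 in UGT73C1, UGT73B5 and UGT76E12, and array 3 in UGT76E11, UGT84A3, BGLU27 and BGLU46. Over the 832 genes called lower on the array, WT array 1 was the lowest in 268 and WT array 3 in 401. UGT73C1, UGT73B5 and UGT76E12 kept their calls with WT array 1 left out, but this is no check on them. Leaving out the lowest WT array can only enlarge a fall, as to -1.46 in UGT73C1 and -1.18 in UGT73B5. Of the 3 measured genes of the list of TGA factors and the oxylipin and xenobiotic response, 0 changed. The glutathione transferase gene GSTU25 ranged widely, at 4.87, 5.23 and 6.37 in WT and 7.38, 5.85 and 4.17 in the mutant. GRX480, a glutaredoxin gene that responds to salicylic acid, had -0.25 ± 0.226, and GSTU28 had -0.17 ± 0.105.

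The UGT76 group acts on hormones, immune signals and flavonoids. Of its 8 measured genes, 2 fell and 0 rose, and 5 lay above 0. The share of all genes that fell was 6.23%, and 6792 of 13356 lay above 0. UGT76E12 (AT3G46660) lay at 5.13, 5.41 and 5.38 in WT and at 3.98, 4.03 and 4.17 in the mutant. Its log2 change was -1.25 ± 0.106 (adjusted p = 0.000971), the fall with the smallest p among the members. UGT76E11 (AT3G46670), which glycosylates flavonoids, lay at 7.15, 7.24 and 6.89 in WT and at 5.77, 6.13 and 6.47 in the mutant. Its genotypes were separate too, and its log2 change was -0.97 ± 0.178 (adjusted p = 0.0127). UGT76E11 missed the threshold when array 2 of WT (adjusted p = 0.0551) or of the mutant (0.0566) was left out.

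The other UGT76E genes measured did not pass the test. UGT76E1, whose enzyme glucosylates a hydroxylated jasmonate, had a log2 change of 0.14 ± 0.103 at a signal of 3.14 to 3.45 over all 6 arrays. UGT76E2 had 0.02 ± 0.209. Both lie together on another chromosome than UGT76E11 and UGT76E12, so the falls in this subgroup were those of 1 tandem pair.

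The measured genes for enzymes that act on salicylic acid and other immune signals did not pass the test. UGT76B1, which glucosylates isoleucic, salicylic and N-hydroxypipecolic acid, lay at 5.76, 6 and 5.92 in WT and at 7.06, 5.95 and 5.13 in the mutant. The mutant arrays thus lay on both sides of WT, over a range of 1.93 units, and the 95% interval of -0.78 to 1.09 does not limit the change closely (log2 change 0.15 ± 0.405, adjusted p = 0.856). UGT74F1, a salicylic acid glucosyltransferase, was steady, at 4.56, 4.59 and 4.6 in WT and 4.6, 4.67 and 4.64 in the mutant (0.05 ± 0.0772, 95% interval -0.12 to 0.23). UGT76D1, which acts on dihydroxybenzoic acids, had 0.13 ± 0.142.

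UGT71B6 (AT3G21780) was the only measured UGT gene that rose. It lay at 5.08, 5.34 and 5.1 in WT and at 5.83, 5.73 and 5.49 in the mutant, without overlap. The log2 change was 0.51 ± 0.119 (adjusted p = 0.029). UGT71B6 missed the threshold when WT array 1 or 3 or mutant array 1 or 2 was left out (adjusted p = 0.087, 0.076, 0.084 and 0.111), with a change of 0.44 to 0.61 over all alternatives. The other measured genes with a role in abscisic acid storage did not pass the test: UGT71C5, another abscisic acid glucosyltransferase, had 0.17 ± 0.112 (95% interval -0.09 to 0.43). BGLU33, a vacuolar enzyme that frees abscisic acid from its glucose ester, had -0.33 ± 0.177 (adjusted p = 0.274). BGLU33 arrays lay at 6.64, 6.73 and 6.84 in WT and 6.04, 6.37 and 6.8 in the mutant, and without mutant array 3 the change was -0.53 and passed (0.0375).

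The remaining UGT71 genes stayed below the threshold. UGT71C2 came closest, at 5.21, 4.82 and 5.16 in WT and 6.11, 5.96 and 5.26 in the mutant. Its mutant arrays were all higher, but array 3 by little, and the log2 change of 0.71 ± 0.218 had an adjusted p of 0.0697, which was 0.00629 without mutant array 3 (change 0.97) and 0.0225 with array quality weights. UGT71C4 had -0.22 ± 0.12, UGT71B8 0.19 ± 0.148 and UGT71B1, a flavonol glucosyltransferase, 0.15 ± 0.11. UGT71B5, UGT71C1 and UGT71C3 had -0.06 ± 0.0919, 0.05 ± 0.114 and -0.05 ± 0.163.

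Among measured genes for enzymes that act on auxin, and for those that join glucose to a nitrogen of cytokinins, none passed the test. UGT84B1, which forms the glucose ester of the auxin indole-3-acetic acid, had a log2 change of 0.09 ± 0.0887 and its neighbour UGT84B2 -0.04 ± 0.0925, both at low signal. UGT74D1, which glucosylates auxins and their oxidised forms, had 0.13 ± 0.101. The cytokinin genes differed in sign: UGT76C1 lay at 6.57, 6.85 and 6.51 in WT and 6.21, 6.37 and 6.4 in the mutant (-0.32 ± 0.114, adjusted p = 0.112), and UGT76C2 had 0.09 ± 0.135.

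UGT84A3 (AT4G15490), which makes glucose esters of hydroxycinnamic acids, lay at 8.17, 8.1 and 7.98 in WT and at 7.59, 7.34 and 7.5 in the mutant. The mutant arrays were lower without overlap, and the log2 change was -0.61 ± 0.0994 (adjusted p = 0.00881). The genes on either side of it, UGT84A1 and UGT84A4, whose enzymes accept the same kind of acids, had -0.08 ± 0.128 and 0.31 ± 0.13 (adjusted p = 0.738 and 0.171).

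None of the 3 measured UGT78D genes, which encode flavonol transferases, passed the test. UGT78D1, which adds rhamnose to flavonols, had a log2 change of 0.10 ± 0.0803, UGT78D2, which adds glucose to flavonols and anthocyanidins, -0.04 ± 0.0845, and UGT78D3, which adds arabinose, 0.12 ± 0.0836. All 3 intervals lay within 0.32 of 0. Of 4 measured genes of the flavonoid and anthocyanin list, DFR, which reduces dihydroflavonols on the way to anthocyanins, fell by 0.66 (SE 0.119, adjusted p = 0.012), and without mutant array 2 the DFR call ended (0.0599). CHIL, a chalcone isomerase-like gene, had 0.20 ± 0.101, AT5MAT, an anthocyanin malonyltransferase, -0.20 ± 0.163 and BAN, anthocyanidin reductase, 0.07 ± 0.119.

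UGT74B1, which completes the core of glucosinolates by adding glucose, had a log2 change of 0.06 ± 0.144. Of 5 measured genes of the glucosinolate list, GSTU20, a glutathione transferase, fell by 0.63 (SE 0.127, adjusted p = 0.0181). The GSTU20 call ended without WT array 1 or 3 or mutant array 2 (adjusted p = 0.0558, 0.051 and 0.0816). BCAT4, an aminotransferase of chain elongation, had -0.45 ± 0.133 (adjusted p = 0.0629, and 0.0455 without WT array 1), and the transporters GTR1 and GTR2 had -0.18 ± 0.0836 and 0.09 ± 0.132. USP, which makes UDP-sugars and was the only measured gene of 37 in the list of nucleotide sugar supply, had -0.04 ± 0.116.

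UGT80B1, a sterol glucosyltransferase, lay at 7.87, 8.04 and 7.85 in WT and at 7.38, 7.5 and 7.74 in the mutant. Its genotypes were separate but mutant array 3 came near WT, and its log2 change of -0.38 ± 0.114 just missed the threshold (adjusted p = 0.067, and 0.0304 without mutant array 3). UGT87A2, which influences flowering time, had -0.25 ± 0.195, with mutant arrays at 8.85, 8.3 and 8.04 and WT arrays at 8.49, 8.8 and 8.64. UGT88A1 had -0.25 ± 0.0948 (adjusted p = 0.129). Of 5 UGT85A genes, UGT85A4 and UGT85A5 had 0.36 ± 0.115 and 0.30 ± 0.148 (adjusted p = 0.0801 and 0.238), and UGT85A2, UGT85A3 and UGT85A7 lay between -0.13 and -0.08.

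**Figure D2:**
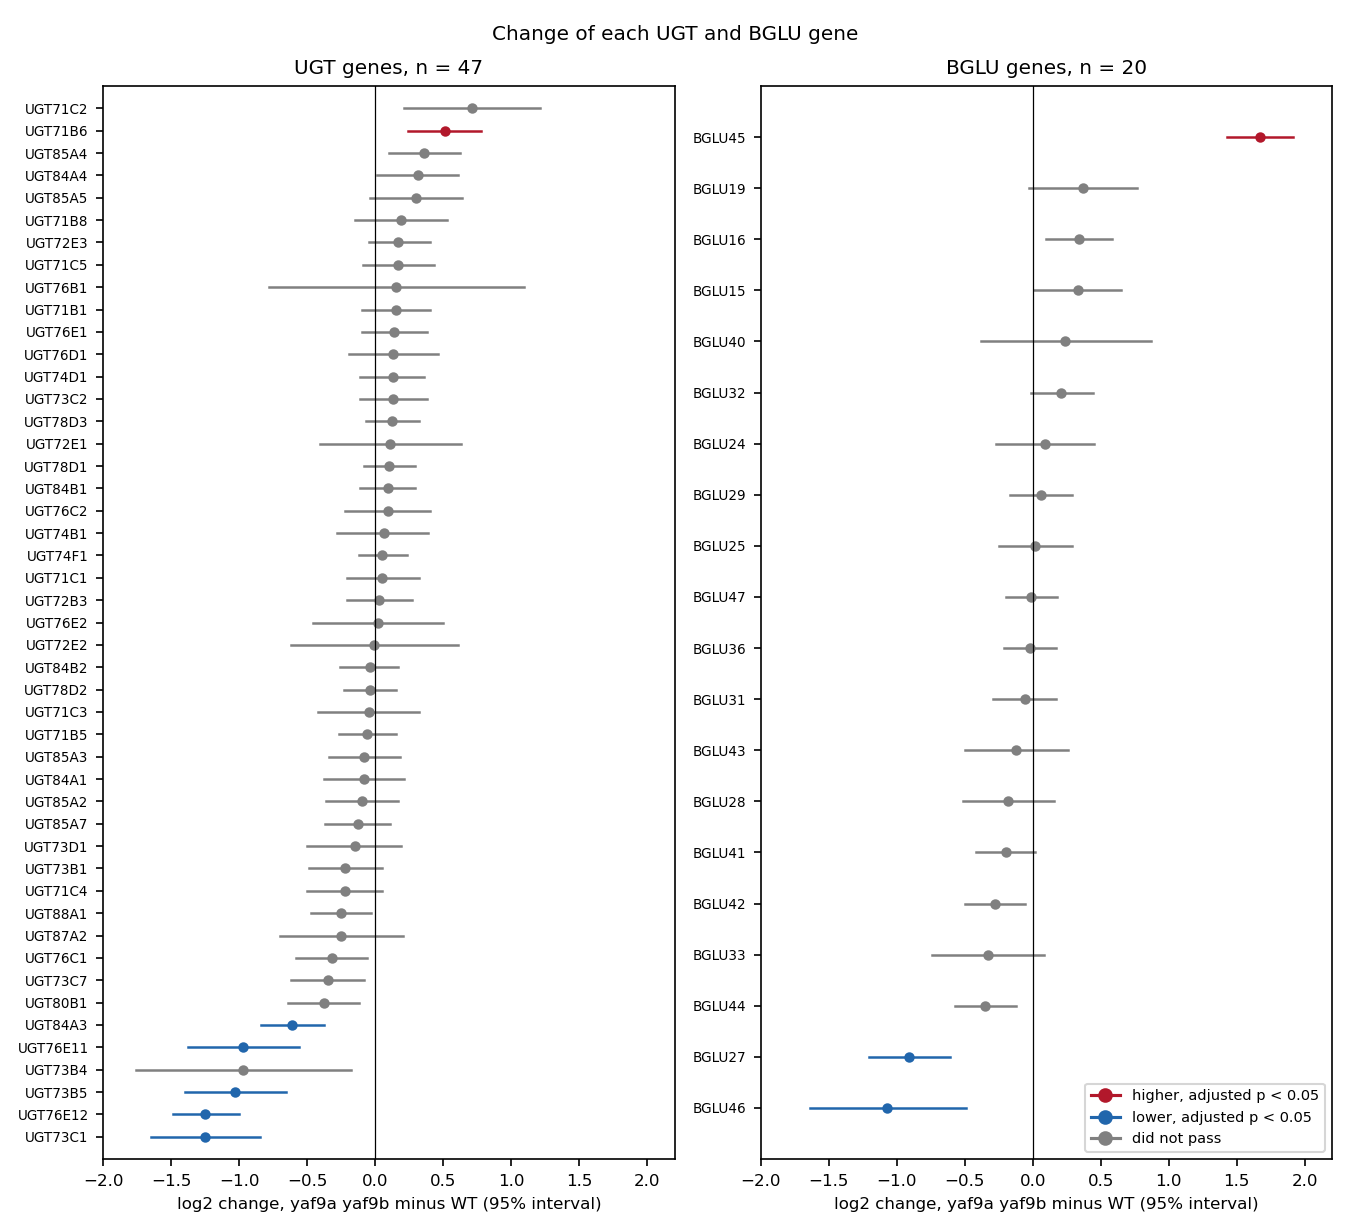
Log2 change (yaf9a yaf9b minus WT) of each of the 47 UGT genes and 20 BGLU genes, ordered by size. Points are limma estimates and lines their 95% intervals; red and blue mark the 9 genes with an adjusted p under 0.05, and grey the others. UGT73B4, at -0.97, lies within the range of the called falls and has a wider interval.

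Of the 20 BGLU genes measured, out of 40 with such symbols, the only one that changed besides BGLU45 and BGLU46 was BGLU27 (AT3G60120). It lay at 4.7, 4.44 and 4.31 in WT and at 3.44, 3.53 and 3.76 in the mutant. The genotypes were separate, with a log2 change of -0.91 ± 0.129 (adjusted p = 0.00512), at a signal in the lowest 40% of the array. BGLU16, the gene beside it, lay at 7.94, 7.96 and 7.85 in WT and 8.22, 8.44 and 8.12 in the mutant (0.34 ± 0.103, adjusted p = 0.0672), and without mutant array 3 the BGLU16 change was 0.41 and passed (0.0499).

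BGLU44, which is known to hydrolyse mannosides, was the member nearest to the threshold on its outer side. Its arrays lay at 10.85, 11.12 and 11.04 in WT and at 10.6, 10.72 and 10.65 in the mutant, all lower, by a log2 change of -0.35 ± 0.0974 (adjusted p = 0.0538). It passed without WT array 1 (0.0436), after cyclic loess (0.0467), with a trended variance model (0.031) and without dim probe sets (0.0418). BGLU42, which takes part in the release of coumarins from roots and in induced resistance, had -0.28 ± 0.0954 (adjusted p = 0.0936), with separate genotypes. BGLU15, which hydrolyses flavonol bisglycosides, had 0.33 ± 0.139 (0.165), and BGLU28, which acts on glucosinolates under sulphur deficiency, -0.18 ± 0.144 (0.49). BGLU40 had 0.24 ± 0.27, with mutant arrays at 5.52, 5.75 and 6.54.

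BGLU19, BGLU24 and BGLU25 are related to PYK10, the main beta-glucosidase of ER bodies, which are stores of such enzymes in the endoplasmic reticulum. Their log2 changes were 0.37 ± 0.174, 0.09 ± 0.156 and 0.02 ± 0.118, and none passed. PYK10, a beta-glucosidase gene whose symbol lies outside the rule for members, had -0.15 ± 0.149. Of 7 measured genes of the ER body list, only JAL22, a jacalin-related lectin, changed, by -0.62 ± 0.107 (adjusted p = 0.0107). JAL23 had -0.53 ± 0.164 (adjusted p = 0.0747, and 0.0316 without WT array 1), FMA, a regulator of stomata and myrosin cells, -0.35 ± 0.174, and NAI2, which is needed to form ER bodies, 0.26 ± 0.142 (0.281, and 0.0335 without mutant array 3). The other 6 BGLU genes, BGLU29, BGLU31, BGLU32, BGLU36, BGLU41 and BGLU43, had log2 changes from -0.20 to 0.21 and signals in the lowest 40% of the array.

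Because many members are tandem copies, neighbours were compared. With at most 1 protein-coding gene between them in the RefSeq order, 41 members formed 28 pairs, some of which share a gene. The signs matched in 12 pairs and differed in 16. Many of the values were near 0, and the signs of some turned when 1 array was left out. How often signs match in neighbouring genes in general was not counted. In 20 pairs neither gene changed, in 6 pairs 1 gene changed, and in 2 pairs both did. Those 2 were BGLU45 with BGLU46, which moved in opposite directions 2.73 log2 units apart, and UGT76E12 with UGT76E11, which both fell. In UGT73C1 with UGT73C2 and in BGLU27 with BGLU16, a fall of about a log2 unit stood beside values of 0.13 ± 0.107 and 0.34 ± 0.103 in the neighbour. The differences within pairs were not tested. None of the member probe sets carries the suffix for probes shared among transcripts (0 with _s_at or _x_at), but how well the probes tell tandem copies apart was not checked otherwise.

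**Figure D3:**
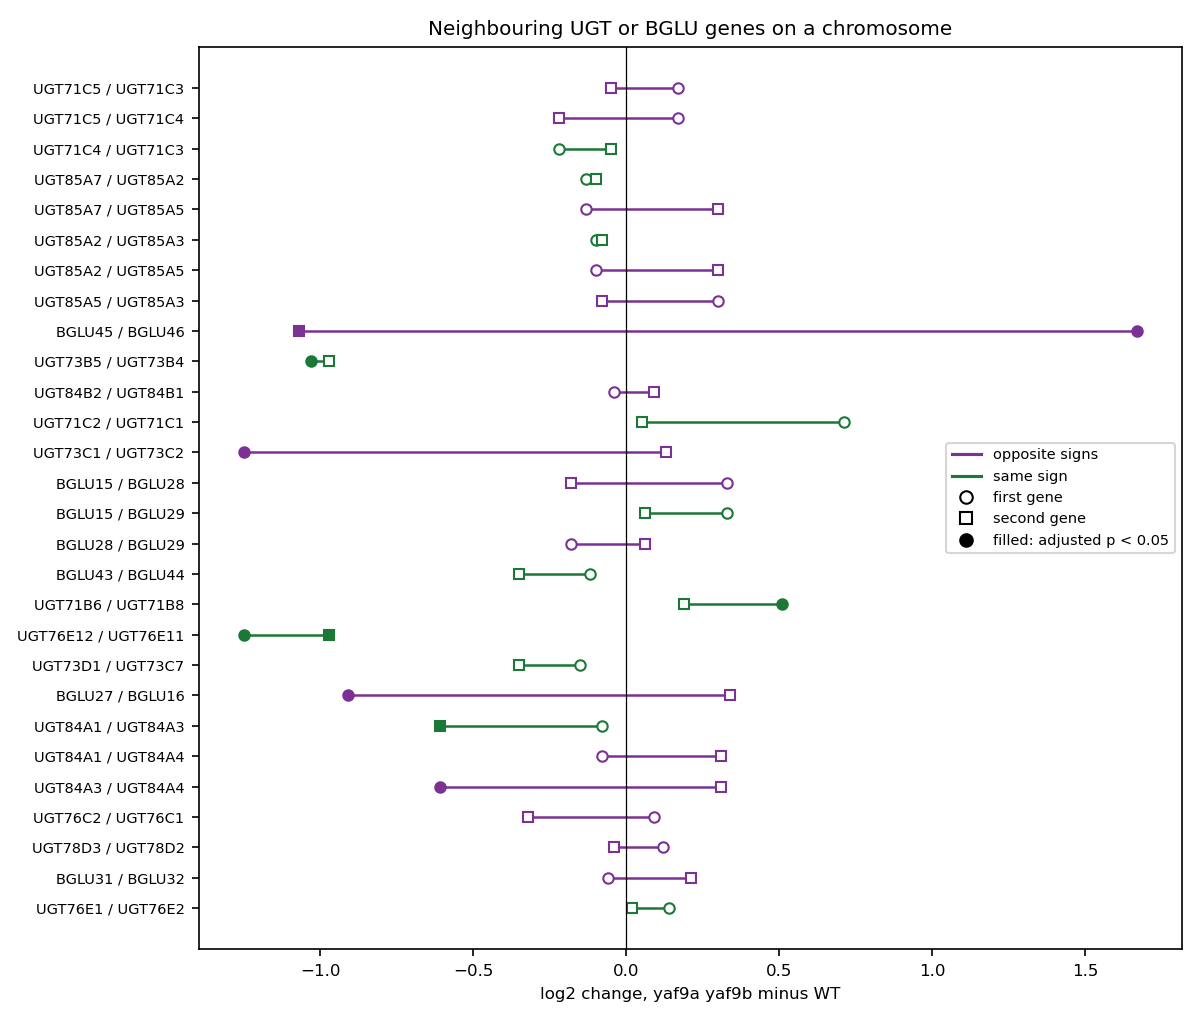
Log2 changes of 28 pairs of neighbouring members, joined by lines; the circle is the first gene of the pair and the square the second, and filled symbols have an adjusted p under 0.05. BGLU45 and BGLU46 lie on opposite sides of 0, at 1.67 and -1.07, while UGT76E12 and UGT76E11 lie together at -1.25 and -0.97.

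Across all 67 members the median log2 change was -0.01, with 33 above 0 and 34 below, and over all genes the median was 0.01. The UGT median was 0.02 and the BGLU median -0.02. The median size of a change was 0.17 over the members and 0.13 over all genes, and 10 members (14.9%) differed by at least 1.5-fold, against 6.54% of all genes. The arrays of the genotypes did not overlap in 21 members (31.3%), against 31.6% of all probe sets and 30% of genes. For 34 members (50.7%, against 68.3% of all genes) the 95% interval lay within 0.5 either side of 0. In BGLU45, UGT73C1, UGT76E12, UGT73B5, UGT76E11 and BGLU27 it lay wholly beyond 0.5. For the remaining members a change of that size was neither shown nor excluded. By signal, 31 members lay in the lowest 40% of the array, at a mean log2 signal under 5.09, and no detection call was used to tell which of them stood above background. Of these, 3 passed the test (9.68%, against 4.26% of all genes under that signal), UGT73C1, UGT76E12 and BGLU27. Of the other 36 members, 6 passed (16.7%, against 18.4% of genes).

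In 33 members (49.3%, against 43.6% of all genes) the arrays ranged more widely in the mutant than in WT. The median range of the members was 0.28 in the mutant and 0.27 in WT, and over all genes it was 0.21 and 0.24. The range over the mutant arrays exceeded 0.7 log2 units in 8 members (11.9%), against 3.48% of all genes, and the range over the WT arrays did so in 3 members (4.48%, against 2.72%). In the 10 members with the widest mutant range, the highest and the lowest mutant array were arrays 1 and 3, in 1 order or the other. How often this holds among other genes with a wide mutant range was not counted, so it is not shown to be particular to the members. UGT76B1, UGT73B4, BGLU46, UGT72E2 and UGT71C2 were highest in mutant array 1 and lowest in array 3, whereas BGLU40, BGLU33 and UGT76E11 were highest in array 3 and lowest in array 1. CCOAMT and GSTU25, which are not members, followed the first of these orders. Leaving out an array moved such changes most: that of UGT76B1 ran from -0.35 to 0.61, and that of BGLU40 from -0.06 to 0.45. What set these arrays apart was not tested.

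**Figure D4:**
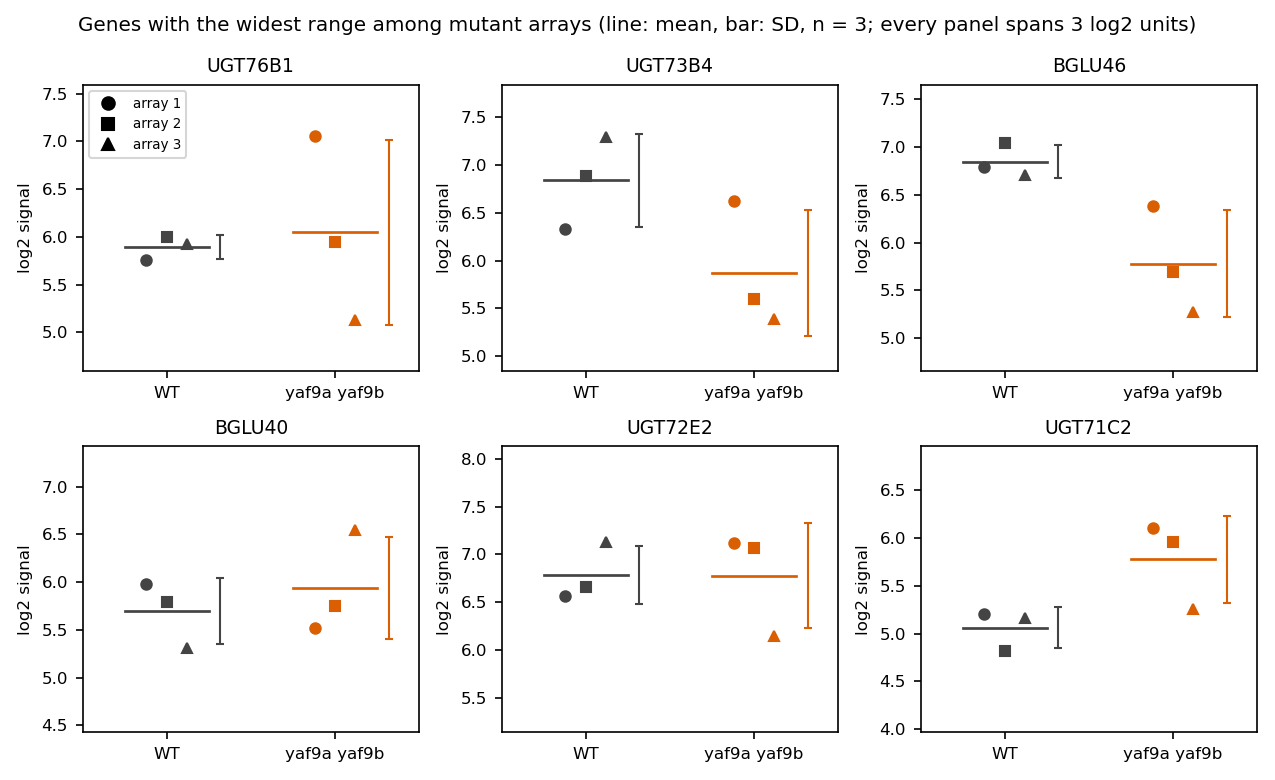
Log2 signal on each array of the 6 members with the widest range among mutant arrays, drawn as in the plot of the genes past the threshold (lines are means, bars SDs, n = 3 arrays). In UGT76B1 the mutant arrays run from 5.13 to 7.06, on both sides of the WT arrays at 5.76 to 6.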

How the data were processed

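Seedling RNA of 3 WT and 3 yaf9a yaf9b samples, 500 ng each, was labelled with a 3' in vitro transcription kit, per the labels' protocols. The deposited values are log2 signals of 6 arrays, made with RMA and affy per the submitters' processing notes. The sources used here give no version, annotation build or scan batch, so a batch that follows genotype cannot be told apart from it. The number of arrays limits the precision.

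From 22810 probe sets, 64 controls were left out. The others were fitted with limma 3.58.1 in R 4.3.3 (lmFit, eBayes, two-sided, no filter, no block; 95% intervals from the moderated fit). The code was tested on simulated data. GEO's platform annotation gave 1 gene for 13513 probe sets, several for 503 and none for 8730; 13436 of the first matched RefSeq (TAIR10.1) by gene ID. A gene was represented by its brightest probe set.

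Members and lists were chosen with earlier results of these data known. Lists were matched by symbol or synonym; the annotation's CHI, a chitinase, was left out. Lists on other glycosyl hydrolases and on salicylic and abscisic acid pools had 0 measured genes. The rule named all changed members, the 4 largest that missed, the 3 brightest of each family, all BGLU genes and up to 4 genes per list by smallest p; the other UGT genes were named after their values were seen. Neighbour pairs were counted among protein-coding genes. A search for sequence motifs was planned and not run, since no sequences were at hand. Alternatives were cyclic loess, median centring, a trended robust variance, array weights, a dim filter at the 40th percentile, leaving out _s_at and _x_at, the mean per gene, the replicate number as a block, and leaving out each array.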

Additional observations from a re-analysis of the deposited data

How the results depend on the processing

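All alternatives were planned. Of the 9 changed members, 6 (BGLU45, UGT73C1, UGT76E12, UGT73B5, BGLU27 and UGT84A3) kept the call in every alternative run for them, where 2 filters leave out some probe sets, and 3 (BGLU46, UGT76E11 and UGT71B6) lost it in at least 1. None of the 9 changed sign. Array weights called 10 UGT genes (4 higher) and 5 BGLU genes (2 higher), all 9 reported ones among them, and 2298 probe sets lower. The dim filter left 3 UGT genes lower because it removed UGT73C1 and UGT76E12. The mean per gene tested fewer features (1589 changed, 765 higher and 824 lower). The BGLU median was -0.05 after cyclic loess, 0.01 after median centring and 0.02 without dim probe sets. With the replicate block, 1233 probe sets changed (693 higher, 540 lower) and 6 members, with 0 UGT genes higher and 1 BGLU gene lower; BGLU46, UGT76E11, UGT71B6, DFR and LHCB4.2 lost the call (adjusted p 0.0545, 0.0527, 0.0643, 0.0534 and 0.121), and BCAT4 and JAL23 passed (0.0499 and 0.0477). Same-numbered arrays had correlations of -0.21, 0.01 and -0.32 in their deviations from the group means, and 0 of 6 arrays correlated best with their own number, so the numbers gave no sign of pairing.

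Leaving out 1 array gave 963 to 2684 changed probe sets (557 to 1401 higher, 406 to 1283 lower), 0 to 2 UGT genes higher and 4 to 6 lower (4 to 8 in all), 1 to 2 BGLU genes higher and 1 to 3 lower (2 to 5 in all), a UGT median of -0.05 to 0.04 and a BGLU median of -0.04 to 0.00. The lowest counts came without mutant array 2 and WT array 2, and 13 members were called without mutant array 3. Of 1290 comparisons of named genes, 1189 kept direction and side of the threshold, and signs turned in 53, all of genes that were not called; the cause was not tested. Turned values were 0.05, 0.02 and 0.21 for UGT72E2 and 0.01 for UGT78D2 (loess, and for UGT72E2 also centring and weights), 0.01 and 0.00 for BGLU36 (centring, weights), 0.02 for BGLU47 (centring), 0.00 for UGT85A2 (weights), 0.01 for USP and -0.04 for RCA (loess), and 0.02 and 0.08 for EXPA7 (centring, weights). Ranges over the fits without 1 array that crossed or touched 0 were as follows. BGLU24 ran from -0.07 to 0.25, BGLU25 from -0.06 to 0.12, BGLU36 from -0.05 to 0.01, BGLU40 from -0.06 to 0.45 and BGLU47 from -0.05 to 0.02. UGT71C1 ran from -0.01 to 0.17, UGT71C3 from -0.20 to 0.12, UGT72B3 from -0.05 to 0.10, UGT72E1 from -0.16 to 0.27, UGT72E2 from -0.18 to 0.31 and UGT74B1 from -0.09 to 0.19. UGT76B1 ran from -0.35 to 0.61, UGT76C2 from -0.02 to 0.19, UGT76D1 from -0.01 to 0.26, UGT76E2 from -0.17 to 0.28, UGT84A1 from -0.19 to 0.04, UGT84B2 from -0.10 to 0.02 and UGT85A2 from -0.17 to 0.00. Outside the members, BAN ran from 0.00 to 0.20, USP from -0.15 to 0.04, GSTU25 from -0.48 to 1.13, PYK10 from -0.25 to 0.02, EXPA7 from -0.09 to 0.10, EXPA18 from -0.09 to 0.24 and PSBW from -0.12 to 0.04.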
